A study of Homo sapiens with 36 samples.

Results

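The let-7 family was examined in small RNA libraries of human cell lines that carry an added chromosome and of their controls. Its members were taken by name and are hsa-let-7a-5p, hsa-let-7b-5p, hsa-let-7c, hsa-let-7d-5p, hsa-let-7e-5p, hsa-let-7f-5p, hsa-let-7g-5p and hsa-let-7i-5p, which are 8 of the 509 mature miRNAs listed in at least 1 of 7 deposited tables. All 8 were listed in all 7 tables, and no filter on low values was applied to them. They are written without the species prefix and the arm in what follows.

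The study sequenced 36 libraries in 12 groups of 3 libraries to ask what the gain of a chromosome does to miRNA levels. HCT116 is a near-diploid line from a colon carcinoma with a modal number of 45 chromosomes, and RPE1 hTERT is a retinal pigment epithelium line immortalised with telomerase, with a modal number of 46. An asterisk marks cells with stable expression of the histone H2B tagged with GFP, and a name such as 5/4 gives the gained chromosome and its copy number. The HCT116 control served HCT116 5/4 (tetrasomy of chromosome 5, a line obtained from another laboratory). The HCT116* control, with H2B-GFP, served 3 lines: HCT116 18/3 c2 (trisomy of chromosome 18, itself without H2B-GFP), HCT116* 3/3 c11 (trisomy of chromosome 3, with H2B-GFP) and HCT116* 8/3 c7 (trisomy of chromosome 8, with H2B-GFP), where c2, c11 and c7 each name 1 clone. The RPE1 control, without H2B-GFP, served RPE1 5/3 12/3 (trisomy of chromosomes 5 and 12). RPE1* 7/3 and RPE1* 21/3 (trisomy of chromosome 7 and of chromosome 21, both with H2B-GFP) were each set against their own 3 libraries of RPE1* control cells. By the methods of the study, RPE1* 7/3 also gained chromosomes 9 and 12 spontaneously, which the labels do not give.

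Each deposited table holds 1 mean per miRNA over 6 libraries, 3 of a line and 3 of its control, in reads after the authors' size-factor normalisation. Values of single libraries, and so their spread and depth, were not analysed here. The tables were normalised separately, and 3 of the 4 HCT116 tables contain the same HCT116* control libraries. The methods of the study mention sequencing batches, and a difference of batch between tables cannot be told apart from one of line or control. The values are therefore given per table, without SD or test, and the 4 HCT116 tables and 3 RPE1 tables are not replicates. Every mean mixes a line with its control in equal numbers of libraries, so a difference between a line and its control cannot be read from it. The summed mean of all listed miRNAs ran from 5556870 to 11221200 reads per table, over 273 to 434 listed miRNAs, and 205 miRNAs were listed in all 7. The lowest listed mean was 11.9 in HCT116* 3/3 c11 and 1.10 to 4.67 in the other tables. The 205 therefore leave out miRNAs that were scarcer than this in HCT116* 3/3 c11. Some marker miRNAs of the parental tissues differed between the cells and others overlapped. Where a marker name gives an arm, only the 5p arm was taken, and the opposite arms were not examined. miR-204-5p, abundant in retinal pigment epithelium, had a mean of 3458 to 16266 in the RPE1 tables and 18.4 to 40.3 in the HCT116 tables. The other of the 2 markers of that tissue, miR-211-5p, was listed in 2 RPE1 tables at 5.07 and 22.2 and in 1 HCT116 table at 2.36. For colon epithelium, 7 of 8 markers were listed in the HCT116 tables (summed mean 11216 to 27342) against 4 in the RPE1 tables (1549 to 2813). Most of the HCT116 sum was miR-200a-5p (6323 to 22387, and listed in 1 RPE1 table at 4.70), while miR-192-5p overlapped (2234 to 3460 against 1336 to 2717), as did miR-194-5p and miR-215. The 4 mesenchymal markers had 3 listed in each cell type, with a summed mean of 1137 to 1493 in HCT116 tables and 101 to 917 in RPE1 tables, mostly miR-145-5p, whereas miR-143-5p was at 4.55 to 9.37 where listed in HCT116 tables and at 9.30 to 101 in RPE1 tables.

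A miRNA guides an Argonaute protein to messenger RNAs through base pairing of its seed, bases 2 to 8, which lowers translation and stability of the target. The let-7 family was found in the worm as a regulator of developmental timing and is conserved up to human, where its targets include RAS genes, HMGA2 and LIN28. LIN28 proteins in turn bind let-7 precursors and block their maturation, so the family is low in embryonic cells and high in most differentiated cells. It is widely described as growth-restraining in tumours.

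The mature sequences are shown because the family differs only outside the seed, and because some members are so alike that reads may be assigned to the wrong one. All 8 names matched an entry of RefSeq (table build GRCh38.p14). Each is printed from its 5′ end with the seed in capitals, in the order of abundance found in the tables.
let-7i: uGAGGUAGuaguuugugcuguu
let-7a: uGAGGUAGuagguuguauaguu
let-7f: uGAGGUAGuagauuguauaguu
let-7g: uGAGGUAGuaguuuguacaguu
let-7b: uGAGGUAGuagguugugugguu
let-7d: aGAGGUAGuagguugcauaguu
let-7c: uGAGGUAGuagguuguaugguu
let-7e: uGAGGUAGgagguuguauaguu

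All are 22 bases long, so length does not differ between them. Recovery of a miRNA in a small RNA library can also depend on its sequence, which was not tested, so comparisons of level between members and with other miRNAs are of reads and not of molecules. With positions counted from 1 at the 5′ end and the let-7a base first, let-7c differs from let-7a by A19G, let-7e by U9G and let-7f by G12A. Next, let-7b carries A17G and A19G, let-7d carries U1A and U16C, and let-7g carries G12U and U18C. The member farthest from let-7a is let-7i, with G12U, A17G, U18C and A19U. The 28 pairs differ at 1 to 6 of the 22 bases. The 4 pairs that differ at 1 base are let-7a with let-7c, let-7e and let-7f, and let-7b with let-7c. Levels of these close members, above all of the scarce let-7c and let-7e beside the abundant let-7a, are uncertain to the extent that the authors' counting could assign a read with a changed base to a neighbour in sequence.

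The 8 mature miRNAs come from 11 genes, placed here on GRCh37, which is the build hg19 that the reads were mapped to. MIRLET7I lies on chromosome 12 (chr12:62997466-62997550, plus strand) in an intron of the long noncoding RNA MIRLET7IHG, and MIRLET7G on chromosome 3 (chr3:52302292-52302379, minus strand) in an intron of WDR82. MIRLET7C lies on chromosome 21 (chr21:17912143-17912236, plus strand) in an exon of MIR99AHG, 653 bases after MIR99A. MIRLET7A1 (chr9:96938234-96938325), MIRLET7F1 (chr9:96938629-96938715) and MIRLET7D (chr9:96941116-96941202) form a cluster on the plus strand of chromosome 9 in exons of MIRLET7A1HG, with gaps of 303 and 2400 bases. MIRLET7A3 (chr22:46508629-46508702) and MIRLET7B (chr22:46509566-46509648) stand 863 bases apart on chromosome 22 in exons of MIRLET7BHG. MIRLET7E (chr19:52196039-52196117, plus strand) is in an intron of SPACA6, MIRLET7A2 (chr11:122017229-122017301, minus strand) in an intron of MIR100HG, and MIRLET7F2 (chrX:53584153-53584235, minus strand) in an intron of HUWE1. Mature let-7a has 3 genes and let-7f has 2, and a read of either cannot be traced to 1 of them.

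Together the 8 members made up between 9.73% and 13.3% of all miRNA signal in a table. The summed family mean was 544816 reads for HCT116 5/4, 773580 for HCT116 18/3 c2, 961701 for HCT116* 3/3 c11 and 835616 for HCT116* 8/3 c7. It was 1038800 reads in RPE1 5/3 12/3, 1456440 in RPE1* 7/3 and 1073090 in RPE1* 21/3. As a share of the summed mean of all listed miRNAs, which removes the scale of a table, the family stood at 9.80%, 9.73%, 10.8% and 10.7% in the 4 HCT116 tables in the same order, and at 11.4%, 12.98% and 13.3% in the 3 RPE1 tables. The RPE1 shares all lay above the HCT116 shares, and the ratio of the medians was 1.27. These shares are set against a few very abundant miRNAs. The most abundant was miR-21-5p in 6 tables and miR-100-5p in RPE1* 7/3, and it alone took 39.3% to 49.2% of a table. Without both miRNAs in the sum the family share was 30.9% to 35.0% in HCT116 tables and 49.2% to 52.9% in RPE1 tables.

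The 4 members let-7i, let-7a, let-7f and let-7g held 93.3% to 97.1% of the family. Their order, let-7i above let-7a above let-7f above let-7g, was the same in all 7 tables. The other 4 followed with let-7b and let-7d above let-7c and let-7e in every table. The order inside these pairs changed between tables. The authors' mean of let-7d exceeded that of let-7b in HCT116 5/4 and HCT116* 8/3 c7 only, by a let-7b to let-7d ratio of 0.901 and 0.913. In the other HCT116 tables this ratio was 1.14 and 1.02, and in the RPE1 tables it was 2.16, 2.53 and 1.73. The ratio of let-7c to let-7e lay between 0.867 and 1.16 in 6 tables and was 1.99 in RPE1* 7/3. With no spread between libraries, ratios this close to 1 do not order those members.

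**Figure D1:**
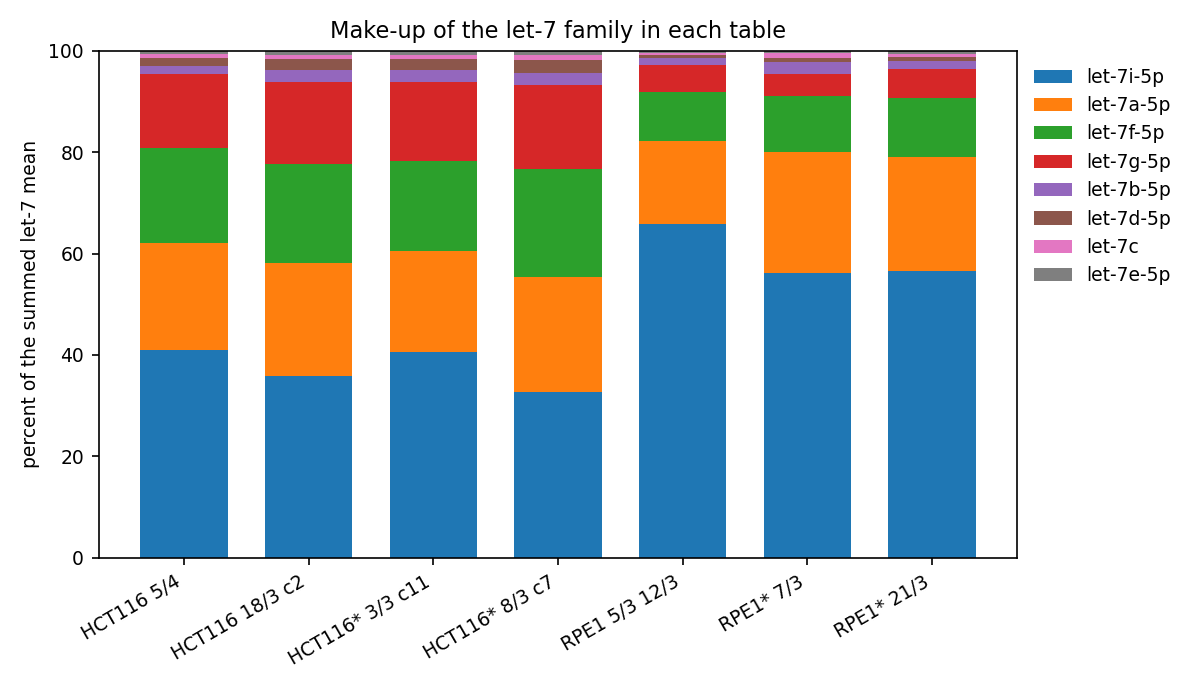
Stacked bars give the percent of the summed let-7 mean held by each of the 8 members (vertical axis) in each of the 7 tables (horizontal axis). The let-7i segment fills 32.8% to 41.0% of the 4 HCT116 bars and 56.2% to 65.9% of the 3 RPE1 bars, and the let-7g segment 14.6% to 16.7% against 4.29% to 5.86%.

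The most abundant member was let-7i and ranked 3 to 5 among all miRNAs of a table. Its mean was 223379 reads for HCT116 5/4, 276620 for HCT116 18/3 c2, 390641 for HCT116* 3/3 c11, 273916 for HCT116* 8/3 c7, 684349 in RPE1 5/3 12/3, 818446 in RPE1* 7/3 and 607742 in RPE1* 21/3. It took 4.02%, 3.48%, 4.37% and 3.49% of all miRNA signal in the HCT116 tables and 7.51%, 7.29% and 7.54% in the RPE1 tables. The 2 sets of shares did not overlap, and the RPE1 shares lay close together. Inside the family, let-7i held 41.0%, 35.8%, 40.6% and 32.8% in HCT116 tables and 65.9%, 56.2% and 56.6% in RPE1 tables, so it was the majority of the family only in RPE1 tables.

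The member with the opposite pattern was let-7g. Its mean was 79340, 125721, 150752 and 139338 reads in the HCT116 tables, in the order above, and 55240, 62480 and 62897 in the RPE1 tables. It took 1.43%, 1.58%, 1.69% and 1.78% of all miRNA signal in the HCT116 tables and 0.606%, 0.557% and 0.781% in the RPE1 tables, again with no overlap. Inside the family it held 14.6%, 16.3%, 15.7% and 16.7% against 5.32%, 4.29% and 5.86%. The ratio of let-7i to let-7g, which does not depend on the scale of a table, was 2.82, 2.20, 2.59 and 1.97 in HCT116 tables and 12.4, 13.1 and 9.66 in RPE1 tables. These members share the seed and both carry G12U, and each comes from a single gene.

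Next in abundance was let-7a, which ranked 4 to 6 among all miRNAs of a table. Its mean was 115009, 173528, 190287 and 188083 reads in the HCT116 tables and 169007, 346606 and 240025 in the RPE1 tables. As a share of all miRNA signal it stood at 2.07%, 2.18%, 2.13% and 2.40% in HCT116 tables and at 1.85%, 3.09% and 2.98% in RPE1 tables. RPE1 5/3 12/3 lay below every HCT116 table and the other RPE1 tables above them, so the sets overlapped. Inside the family it held 19.8% to 22.5% in HCT116 tables and 16.3% to 23.8% in RPE1 tables, with medians of 21.8% and 22.4%.

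A single base separates let-7f from let-7a, and its mean was 102141, 150680, 171689 and 178376 reads in HCT116 tables and 100178, 161677 and 124744 in RPE1 tables. Its share of all miRNA signal was 1.84%, 1.89%, 1.92% and 2.28% in HCT116 tables and 1.10%, 1.44% and 1.55% in RPE1 tables, without overlap. The ratio of let-7a to let-7f was near 1 in HCT116 tables (1.13, 1.15, 1.11 and 1.05) and higher in RPE1 tables (1.69, 2.14 and 1.92). Both have a gene in the chromosome 9 cluster, and their other genes lie on chromosomes 11 and 22 for let-7a and X for let-7f.

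Of the scarcer members, let-7d had means of 9053, 16072, 21452 and 21561 reads in HCT116 tables and 6676, 13411 and 8879 in RPE1 tables. Its share of all miRNA signal was 0.163%, 0.202%, 0.240% and 0.275% against 0.0733%, 0.120% and 0.110%, without overlap. By contrast let-7b, with means of 8156, 18286, 21894 and 19675 reads in HCT116 tables and 14389, 33896 and 15390 in RPE1 tables, had shares of 0.147%, 0.230%, 0.245% and 0.251% against 0.158%, 0.302% and 0.191%. Its lowest share was in HCT116 5/4 and its highest in RPE1* 7/3, and the sets overlapped.

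The scarcest members were let-7c and let-7e. The means of let-7c were 3892, 6599, 7431 and 7877 reads in HCT116 tables and 4164, 13250 and 6414 in RPE1 tables, with shares of all miRNA signal of 0.0700%, 0.0830%, 0.0831% and 0.100% against 0.0457%, 0.118% and 0.0796%. Its highest and its lowest share were both in RPE1 tables. Inside the family its RPE1 percentages, 0.401% to 0.910%, were 2.27-fold apart, the widest spread of any member's percentage of the family among tables of the same parental cell. The means of let-7e were 3846, 6072, 7555 and 6791 reads in HCT116 tables and 4801, 6670 and 7000 in RPE1 tables, with shares of 0.0692%, 0.0763%, 0.0845% and 0.0866% against 0.0527%, 0.0594% and 0.0869%. The sets overlapped for both.

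**Figure D2:**
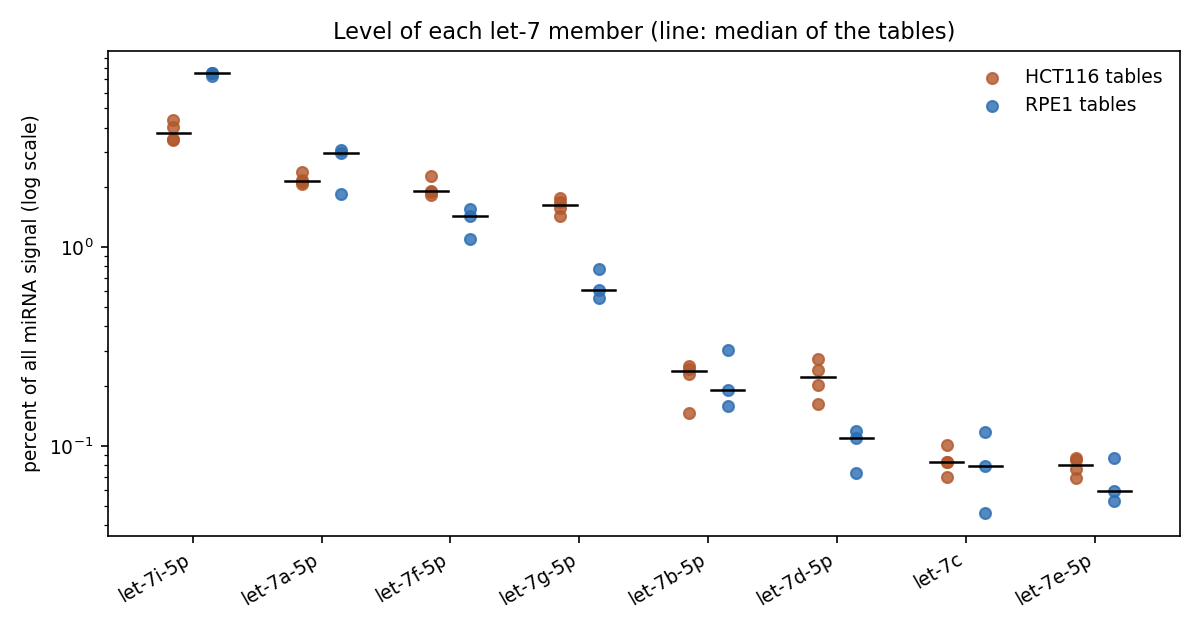
Each point is a member's percent of all miRNA signal (log axis) in 1 table, HCT116 tables in orange and RPE1 tables in blue, and black lines are medians over tables. The RPE1 points of let-7i lie above all HCT116 points, those of let-7f, let-7g and let-7d lie below them by share (the let-7f ratio turns to 1.58 after median-of-ratios scaling), and those of the other 4 members overlap.

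The 2 parental cell types were compared by the ratio of the median share over the 3 RPE1 tables to that over the 4 HCT116 tables, and by whether the ranges overlapped. The share of let-7i was 1.999-fold and that of let-7a 1.38-fold in RPE1 tables. The ratio was 0.959 for let-7c, 0.805 for let-7b, 0.756 for let-7f, 0.739 for let-7e, 0.499 for let-7d and 0.371 for let-7g. Without the RPE1 5/3 12/3 table the log2 share ratio turned from -0.31 to 0.055 for let-7b and from -0.06 to 0.25 for let-7c, so their direction rested on that table. Ranges were apart for 4 of 8 members (let-7d, let-7f, let-7g and let-7i), and for 58.5% of the 205 miRNAs listed in all tables, so the count of members was no larger than the background. The direction of such ratios depended on the scale. The median miRNA had an RPE1 over HCT116 share ratio of 0.514, or -0.96 on the log2 scale, and relative to that median every member but let-7g and let-7d stood higher in RPE1 tables. By this ratio let-7i stood at percentile 85.9 of the 205 miRNAs and let-7g at percentile 39.0.

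When the tables were instead put on one scale by the median of ratios over the common miRNAs, the RPE1 over HCT116 ratio was 4.05 for let-7i, 2.69 for let-7a, 1.87 for let-7c, 1.63 for let-7e, 1.58 for both let-7b and let-7f, 0.974 for let-7d and 0.747 for let-7g, and the family as a whole stood at 2.60. On that scale let-7b, let-7c, let-7e and let-7f were thus higher in RPE1 tables, while by share they were lower. Ranges on that scale were apart for 4 members, let-7a, let-7b, let-7e and let-7i, beside 46.8% of the 205 miRNAs. Levels relative to the summed family do not depend on the scale of a table. By that measure ranges were apart for 5 of 8 members, beside 66.8% of the 205 miRNAs. The median percent of the family went from 38.2% in HCT116 tables to 56.6% in RPE1 tables for let-7i, from 19.1% to 11.1% for let-7f, from 16.0% to 5.32% for let-7g, from 2.15% to 0.827% for let-7d and from 0.785% to 0.462% for let-7e. The members let-7a, let-7b and let-7c overlapped. Under all 3 measures let-7i was higher and let-7g lower in the RPE1 tables by ratio, although the ranges of let-7g overlapped after median-of-ratios scaling.

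In 3 HCT116 tables the control libraries are the same and the line differs. Relative to the family, let-7i held 40.6% in HCT116* 3/3 c11, 35.8% in HCT116 18/3 c2 and 32.8% in HCT116* 8/3 c7, and let-7f held 17.9%, 19.5% and 21.35% in the same order. Percentages of one sum are tied, so a higher let-7i percentage leaves less for the others, and by share of all miRNA signal let-7f was at 1.92%, 1.89% and 2.28%. HCT116 5/4, with the other control, had a let-7i percentage of 41.0% and the lowest let-7b and let-7c percentages of the HCT116 tables, 1.50% and 0.714%. The spread between libraries behind these means is unknown, so whether the lines differ was not tested.

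3 members have a gene on a chromosome that a line gained by its label, which are let-7g on chromosome 3, let-7i on chromosome 12 and let-7c on chromosome 21. If a member's level in the line rose in step with the change from 2 to 3 copies, and the control kept its level, the mean over line and control would be 1.25 times the control level. This figure is arithmetic and not a measurement. The tables compared with it hold other lines. For let-7g, 2 of the 3 comparison tables contain the same HCT116* control libraries, and for let-7c and let-7i the RPE1 comparison tables contain other control libraries. The 1.25 therefore gives only a size against which differences between tables can be read. It applies to a level. A percentage of the family would rise by less, since the member is itself part of the sum, above all for the abundant let-7i. For members with more than 1 gene, of which only some were gained, the 1.25 does not apply.

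In the HCT116* 3/3 c11 table let-7g held 15.7% of the family, inside the range of 14.6% to 16.7% of the other 3 HCT116 tables, at 0.965 times their median. After median-of-ratios scaling its level was 1.01 times their median. In the RPE1 5/3 12/3 table let-7i held 65.9% of the family, above 56.2% and 56.6% in the other RPE1 tables and 1.17 times their median. One of those tables, RPE1* 7/3, shares the gain of chromosome 12 by the methods of the study, and without it the log2 ratio of the percentages was 0.22, as with it. After median-of-ratios scaling the order turned, with let-7i at 0.936 times the median of the other tables. The lower level of let-7a in the RPE1 5/3 12/3 table stands beside this, at 16.3% of the family against 22.4% and 23.8%. Its part in the percentage of let-7i was not tested.

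In the RPE1* 21/3 table let-7c held 0.598% of the family, between 0.401% in RPE1 5/3 12/3 and 0.910% in RPE1* 7/3. It stood at 0.912 times the median of the other 2 tables, and the direction rested on RPE1* 7/3, since against RPE1 5/3 12/3 alone the log2 ratio was 0.58. The gains of RPE1* 7/3 known from the methods touch 4 members. There let-7d, whose only gene is on chromosome 9, held 0.921% of the family against 0.643% and 0.827% in the other RPE1 tables, which is 1.25 times their median and 1.47 times after median-of-ratios scaling. The log2 ratio of its percentage was 0.33 against both tables. Against RPE1* 21/3 alone it was 0.15, an alternative added after seeing the data. In the same table let-7a, with 1 of 3 genes on chromosome 9, was at 1.23 times and let-7f, with 1 of 2, at 1.04 times the median of the other tables within the family. After median-of-ratios scaling let-7a was at 1.45 and let-7f at 1.23 times. There let-7i, on chromosome 12, held 56.2% against 56.6% in RPE1* 21/3 and 65.9% in RPE1 5/3 12/3, which has the same gain, but was at 1.10 times their median after scaling. The let-7c percentage in this table, 0.910%, was also the highest of the RPE1 tables, although no gain of its chromosome 21 is stated for that line. The same held for let-7b on chromosome 22, at 2.33% against 1.39% and 1.43%. By contrast let-7e, at 0.458%, and let-7g, at 4.29%, were the lowest of the RPE1 tables there. After median-of-ratios scaling let-7b (40372 against 18432 and 22724) and let-7c (15781 against 5334 and 9471) were also highest in RPE1* 7/3. On that scale let-7e and let-7g lay between the other RPE1 tables.

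**Figure D3:**
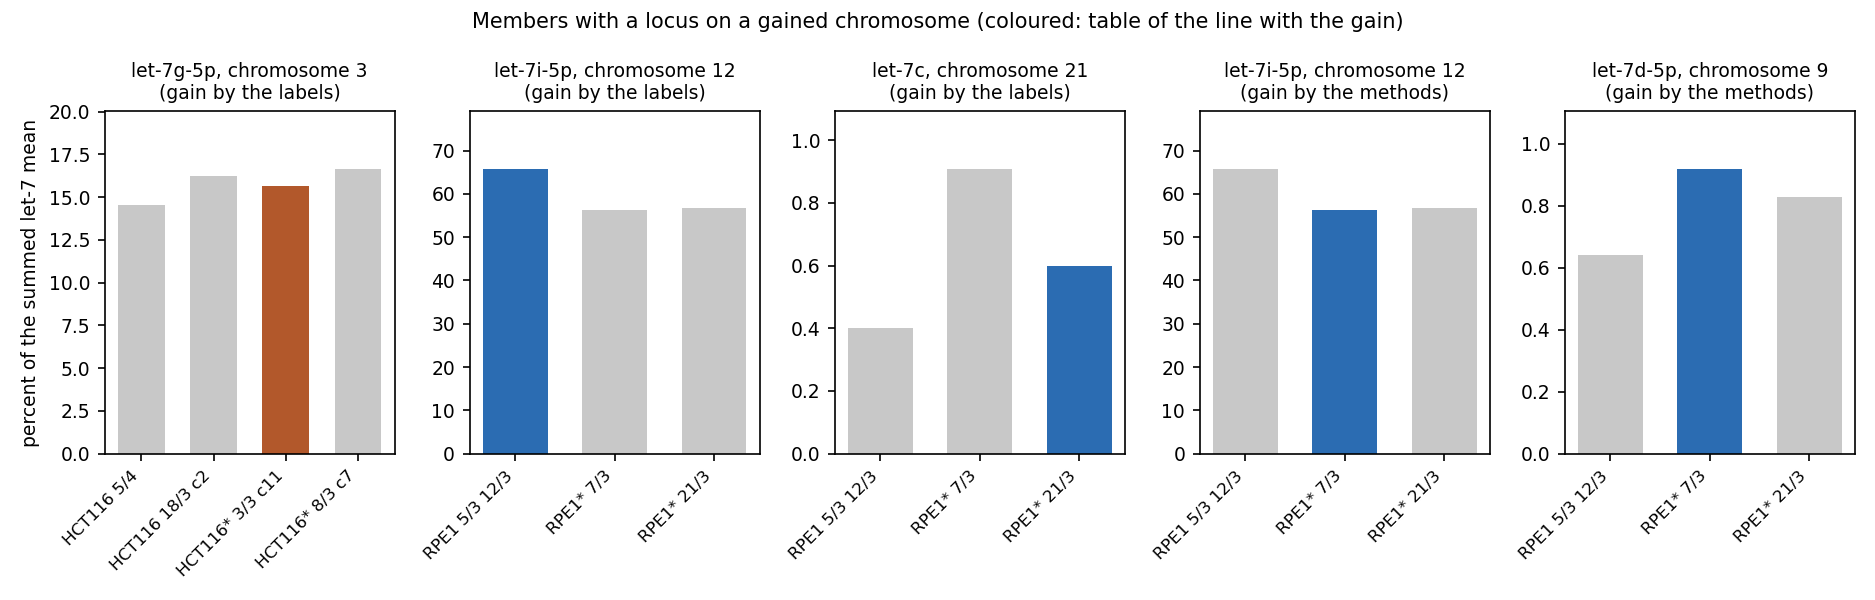
Bars give the percent of the summed let-7 mean held by a member with a gene on a gained chromosome, in the table of the line with that gain (coloured) and in the other tables of the same parental cell (grey). For let-7i, RPE1 5/3 12/3 and RPE1* 7/3 both gained chromosome 12, so 1 grey bar in each of its panels carries the same gain. The coloured bar stands above all grey bars for let-7i in RPE1 5/3 12/3 (65.9%) and let-7d in RPE1* 7/3 (0.921%), and not for let-7g (15.7%), let-7c (0.598%) or let-7i in RPE1* 7/3 (56.2%).

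The seed is not particular to the 8 members. In RefSeq, 11 human miRNAs hold GAGGUAG at bases 2 to 8, and 3 of them are not members. One of these is miR-98-5p, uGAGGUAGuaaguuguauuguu, which differs from let-7a at 2 bases and whose gene stands 850 bases from MIRLET7F2 on chromosome X. It was listed in all tables with a mean of 4909 to 10845 reads in HCT116 tables and 2880 to 3827 in RPE1 tables, below let-7b and let-7d in each. Its ratio to let-7f was 0.0481, 0.0577, 0.0632 and 0.0574 in HCT116 tables and 0.0287, 0.0218 and 0.0307 in RPE1 tables, and the 2 sets did not overlap. The second, miR-4458, was listed in 5 tables at a mean of 2.50 to 5.25 reads. The HCT116* 3/3 c11 table lists no mean below 11.9, so miR-4458 could not be listed there at such a level. The third, miR-4500, was listed in none. It has 17 bases and mirdeep2 kept no read shorter than 18, so reads of its full length could not be counted. Among the listed miRNAs with this seed, almost all reads were those of the 8 members.

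Several members are encoded beside miRNAs of other families, and clusters join let-7 to the miR-99/miR-100 and miR-125 families on chromosomes 11, 19 and 21. Ratios of such neighbours within a table do not depend on scale. On chromosome 21, miR-99a-5p was 0.379, 1.04, 0.730 and 0.615 times let-7c in the HCT116 tables and 2.30, 2.09 and 2.24 times let-7c in the RPE1 tables. The ratio thus spanned 6.06-fold between miRNAs whose genes are 653 bases apart, and it was tight among RPE1 tables. Its let-7c term is 1 base from the abundant let-7a. Its miR-99a-5p term has an abundant relative in miR-100-5p (0.0266% against 22.4% of all miRNA signal in HCT116 5/4). Whether reads of these were counted as let-7c or miR-99a-5p was not tested. RPE1* 21/3, with the third copy of chromosome 21, lay between the other RPE1 tables in the ratio of miR-99a-5p to let-7c. On the same chromosome but 50320 bases from MIRLET7C lies MIR125B2, and miR-125b-5p, which MIR125B1 on chromosome 11 also encodes, was 3.59 to 13.1 times let-7c in HCT116 tables and 4.65 to 24.5 times in RPE1 tables.

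On chromosome 19 the genes MIR99B, MIRLET7E and MIR125A lie within 104 and 389 bases of each other. There miR-99b-5p was 10.4, 15.1, 16.6 and 14.5 times let-7e in HCT116 tables and 8.40, 12.1 and 6.69 times in RPE1 tables. For miR-125a-5p the ratio to let-7e was 2.34, 1.29, 1.30 and 1.19 in HCT116 tables and 3.03, 2.11 and 2.78 in RPE1 tables. In both ratios HCT116 5/4 stood apart from the other HCT116 tables and inside the RPE1 range. On chromosome 11 MIR100 lies 5635 bases from MIRLET7A2, and miR-100-5p was 8.56 to 12.2 times let-7a in HCT116 tables and 10.0 to 20.2 times in RPE1 tables, a ratio to which the other 2 let-7a genes also contribute. In every table the reads of miR-99b-5p and miR-125a-5p exceeded those of let-7e, and the reads of miR-100-5p exceeded those of let-7a.

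**Figure D4:**
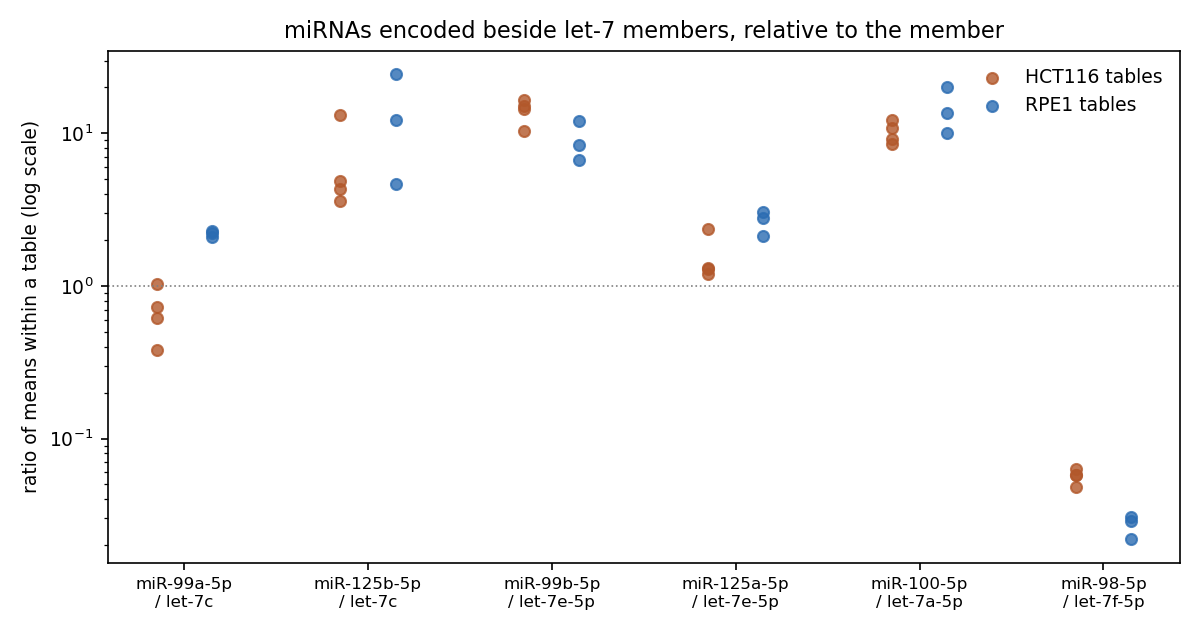
Each point is the ratio of the mean of a neighbouring miRNA to the mean of a let-7 member within 1 table (log axis), HCT116 tables in orange and RPE1 tables in blue, with a dotted line at equal levels. HCT116 and RPE1 points are apart for miR-99a-5p over let-7c (at most 1.04 against at least 2.09) and for miR-98-5p over let-7f (at least 0.0481 against at most 0.0307), and the other 4 ratios overlap.

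The miRNAs outside the family whose centred shares lay nearest to those of the summed family were sought among 92 that had a mean of at least 100 in all 7 tables. Likeness was the root mean square distance of log2 shares, each centred on its own mean over the 7 tables. The family share itself varied little between tables. A small value can therefore come from a miRNA that varied little, and does not show parallel levels. The nearest were miR-484 at 0.25, miR-221-5p at 0.26 and miR-671-5p at 0.27, beside a median of 0.85 over the 92. The members' own distances from their sum ran from 0.17 for let-7a to 0.82 for let-7g, and each member but let-7a was farther from the family total than these 3 miRNAs were. The share of miR-484 was 0.0260%, 0.0204%, 0.0233% and 0.0200% in HCT116 tables and 0.0266%, 0.0212% and 0.0374% in RPE1 tables, so its sets overlapped while those of the family did not. The highest share of miR-221-5p, 0.0670%, was in HCT116 5/4, where the family share was near its lowest. For miR-671-5p the share was 0.00791% to 0.0113% in HCT116 tables and 0.00848% to 0.00926% in RPE1 tables. With a minimum mean of 1000, miR-27a-5p at 0.29 took the place of miR-671-5p.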

How the data were processed

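Total RNA including small RNAs was extracted by the authors, from which TruSeq small RNA libraries were made and read from one end. Adapters were taken off with cutadapt. Reads were then placed on hg19 by mirdeep2, which counted the mature miRNAs that miRBase lists, for 3 libraries of a line together with 3 of its control. They then used DESeq2 (version not given in the sources used here) for size factors and a test of line against control. The deposited mean is a signal in normalised reads: the authors divided counts by size factors and took the average of the 6 libraries of each table. It is the authors' mean over line and control, with no SD or n. The other 5 columns of each table hold the authors' comparison of line with control (log2 fold change, its standard error, the test statistic, the p-value and the adjusted p-value). They were not used, so no fold change between line and control is reported here, and no test was possible on the means.

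From the means were computed the percent of the summed mean of all listed miRNAs, the percent of the summed 8 members, ranks, ratios between miRNAs of a table and levels after median-of-ratios scaling over the 205 miRNAs listed in all 7 tables. Only the scaling, and the recovery of a set change between cell types after it, were tested on simulated tables. Most miRNAs were left unchanged between the cell types there. The within-family percentages, ranks and ratios between miRNAs were not tested in this way. Cell types were compared by ratios of medians over tables. A table's groups and its gained chromosomes come from the labels, and the gains of chromosomes 9 and 12 in RPE1* 7/3 from the methods of the study.

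Named miRNAs are the 8 members, other miRNAs with their seed, 6 cluster neighbours, the 3 most similar miRNAs, the most abundant miRNA of a table and the marker lists. Members, lists and alternatives were chosen with earlier results of these data known. Positions come from GENCODE on GRCh37 (the build hg19) and mature sequences from RefSeq, whose GRCh38.p14 coordinates were not used. The depth that each library reached is unknown, beyond a nominal number of reads in the methods of the study, and so no interval is given. Alternatives were another denominator, another scaling, miR-98-5p added to the family, another minimum mean for likeness and leaving out tables. Python 3.11.15, numpy 2.4.6, pandas 2.3.3 and matplotlib 3.10.9 were used.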

Additional observations from a re-analysis of the deposited data

How the results depend on the processing

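No paired analysis was possible because the tables hold no values of single libraries, and for the same reason no replicate could be left out. The depth that each library reached is unknown and limits what can be said of the scarcer members. A value was taken as unmoved where it kept its sign and shifted by less than the SD over tables of the same parental cell. By this measure all 16 median within-family percentages (8 members in 2 cell types) with miR-98-5p added were unmoved, as were 14 of 21 family shares and 77 of 96 RPE1 over HCT116 ratios of single members, over all alternatives. The 16 could hardly move, since miR-98-5p had at most 10845 reads in a table and the family at least 544816. They are no measure of how firm the percentages are. The 14 came only from sums limited to miRNAs listed in all tables or with a mean of at least 10. Such sums hardly differed from the full one, with family shares of 9.83% and 9.81% beside 9.80% in HCT116 5/4. Without miR-21-5p and miR-100-5p in the sum, the family share moved in every table. The same limited sums are also among the alternatives behind the 77.

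Without miR-21-5p and miR-100-5p in the sum, the family share became 30.9% for HCT116 5/4, 32.3% for HCT116 18/3 c2, 34.4% for HCT116* 3/3 c11, 35.0% for HCT116* 8/3 c7, 49.2% in RPE1 5/3 12/3, 52.9% in RPE1* 7/3 and 49.4% in RPE1* 21/3. The log2 ratio of the family, RPE1 over HCT116, went from 0.34 to 0.57 with this sum and to 1.38 with median-of-ratios scaling. With median-of-ratios scaling the log2 ratio turned from -0.31 to 0.66 for let-7b, from -0.06 to 0.90 for let-7c, from -0.44 to 0.71 for let-7e and from -0.40 to 0.66 for let-7f. It turned to 0.13 for let-7c without those 2 miRNAs, and without RPE1 5/3 12/3 to 0.055 for let-7b and 0.25 for let-7c. For members on gained chromosomes, the log2 ratio to the other tables turned with median-of-ratios scaling from -0.05 to 0.0079 for let-7g in HCT116* 3/3 c11, from 0.22 to -0.095 for let-7i in RPE1 5/3 12/3 and from -0.12 to 0.14 for let-7i in RPE1* 7/3. By share of all miRNAs, an alternative added after seeing the data, the first became 0.092 and the second 0.018. For let-7c in RPE1* 21/3 it turned from -0.13 to 0.58 without RPE1* 7/3, also added after seeing the data. The cause was not tested.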
